A study of Mus musculus with 12 samples.

Results

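The tricarboxylic acid (TCA) cycle enzyme genes described here are 9 of the 57180 genes in the transcript-to-gene table, chosen by their symbols: *Cs*, *Idh3a*, *Idh3b*, *Idh3g*, *Ogdh*, *Suclg1*, *Sdha*, *Fh1* and *Mdh2*. RNA was sequenced from 12 libraries of a mouse embryonic stem cell (ESC) line, E14, that carries a doxycycline-inducible dCas9-based repressor. Such a repressor lowers transcription at the start site to which its guide RNAs lead it (CRISPR interference). Neg cells carried scramble guides, and 3×KD cells carried guides against *Pcx*, *Me1* and *Me2*. Both lines were sequenced as ESCs, kept in 2iLIF medium, and at day 2 of the passage to epiblast-like cells (EpiLCs) in Activin A, Fgf2 and XAV939, with 3 libraries in each of the 4 groups. All groups share the repressor line, which is 1 clone, constitutive guide expression and the selection antibiotics. The sample labels do not name doxycycline, and treatment of all groups was taken from the study's description of the experiment. *Pcx* encodes pyruvate carboxylase, which makes oxaloacetate from pyruvate, and *Me1* and *Me2* encode malic enzymes, which make pyruvate from malate, so all 3 targets act on the carbon that enters or leaves the cycle.

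In the mitochondrial matrix, citrate synthase (*Cs*) joins acetyl-CoA to oxaloacetate, and aconitase turns the citrate into isocitrate. Isocitrate dehydrogenase 3 (*Idh3a*, *Idh3b* and *Idh3g*) and the oxoglutarate dehydrogenase complex (*Ogdh*) each release CO2 and make NADH. Succinyl-CoA ligase (*Suclg1*), succinate dehydrogenase (*Sdha*), fumarate hydratase (*Fh1*) and malate dehydrogenase (*Mdh2*) then lead back to oxaloacetate. In pluripotent cells the cycle is also known as a source of α-ketoglutarate, a cofactor of DNA and histone demethylases, and of citrate for acetyl-CoA outside mitochondria.

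The libraries held 11221023 to 19652197 estimated counts. A targeted gene was lower in every 3×KD library than in every Neg library of its state: *Pcx* averaged 36.2 and 16.4 CPM (counts scaled to library size) in Neg and 3×KD ESCs, *Me1* 69.2 and 37.3 and *Me2* 101 and 52.2, each with n = 3. Defining markers followed the state. The summed CPM of 6 naive pluripotency genes was 3670 to 3790 in Neg ESCs, 2630 to 2690 in the 3×KD ESC libraries, 244 to 254 in Neg EpiLCs and 333 to 346 in 3×KD EpiLCs. That of 5 formative genes was 231 to 242, 268 to 274, 2700 to 3030 and 1600 to 1650 in the same order, so both marker sets differed between the lines as well as between the states. Some single genes went against the sums. In 3×KD ESCs *Otx2* passed as lower (log2 fold change −1.20), while *Dnmt3a* passed as higher (0.39), as the formative sum was. In 3×KD EpiLCs *Nr0b1* passed as lower (−0.84), while 4 naive genes passed as higher, as the naive sum was. The largest marker differences were those of *Klf4*, *Tbx3* and *Tfcp2l1* (log2 fold changes of −4.69, −4.29 and −4.16) and of *Pou3f1*, *Fgf5* and *Otx2* (6.40, 6.35 and 6.12) between Neg EpiLCs and Neg ESCs. Summed markers of other lineages were low but higher in 3×KD than in Neg ESCs, without overlap, for primitive endoderm (5 genes, 27.6 to 30.1 against 20.1 to 23.2 CPM), trophoblast (5 genes, 51.2 to 58.2 against 42.8 to 45.6) and fibroblasts (4 genes, 7.86 to 8.56 against 4.33 to 5.32). *Krt7*, *Thy1* and *Gata6* passed there (2.17, 0.85 and 0.78). Of the 5 trophoblast genes 1 passed as higher there and 1 as lower. *Cdx2* was at 2.75, 2.62 and 3.21 CPM in Neg ESCs and at 0.491, 0.427 and 0.588 in 3×KD ESCs. In EpiLCs primitive endoderm markers were lower in 3×KD (17.6 to 19.5 against 23.3 to 27.8) and those of trophoblast (11.2 to 14.5 against 5.44 to 7.21) and fibroblasts (5.68 to 7.20 against 3.82 to 4.97) higher, while 4 mesoderm genes summed to 19.4 to 30.0 over all libraries. Of the 5 trophoblast genes 2 passed as higher in 3×KD EpiLCs and 1 as lower. *Gata3* was at 0.678, 0.537 and 0.569 CPM in Neg EpiLCs and at 0.124, 0.256 and 0.187 in 3×KD EpiLCs. Of the 4 fibroblast genes 1 passed as higher in 3×KD EpiLCs. The log2 fold changes of these genes were above 0 for 2 and below 0 for 2. *Elf5*, *T*, *Mesp1*, *Col1a2* and *Dcn* were under 1 CPM. Their part, and that of the state markers, in the differences below was not tested. In bulk RNA, fewer cells with a transcript and less of it per cell cannot be told apart.

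Promoter sequence is shown for *Fh1* and *Ogdh*, which were higher in 3×KD in both states, and for *Idh3b*, whose differences had opposite directions in ESCs and EpiLCs. The RefSeq table held promoters for 8 of the 9 genes, and *Idh3a* was the missing entry. The bases before each RefSeq start were placed in GRCm39 by exact match and end at the canonical GENCODE start or at the end of a motif. They lie at chr1:175453206-175453451 (minus strand, 246 bases) for *Fh1*, chr11:6241347-6241553 (plus strand, 207 bases) for *Ogdh* and chr2:130126468-130126621 (minus strand, 154 bases) for *Idh3b*. Exons of long noncoding genes on the opposite strand overlap the windows: *Gm69937* at *Fh1*, *Gm72270* at *Ogdh* and *Gm74723* at *Idh3b*. Capitals mark a cAMP response element (CRE).
Fh1: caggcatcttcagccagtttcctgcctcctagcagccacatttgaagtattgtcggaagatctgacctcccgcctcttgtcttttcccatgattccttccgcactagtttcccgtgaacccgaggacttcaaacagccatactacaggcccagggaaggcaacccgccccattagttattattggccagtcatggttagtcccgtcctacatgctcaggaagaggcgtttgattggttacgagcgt
Ogdh: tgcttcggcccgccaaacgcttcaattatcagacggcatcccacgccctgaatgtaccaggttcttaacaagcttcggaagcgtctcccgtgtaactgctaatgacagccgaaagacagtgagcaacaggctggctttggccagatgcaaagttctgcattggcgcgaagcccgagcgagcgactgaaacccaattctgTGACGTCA
Idh3b: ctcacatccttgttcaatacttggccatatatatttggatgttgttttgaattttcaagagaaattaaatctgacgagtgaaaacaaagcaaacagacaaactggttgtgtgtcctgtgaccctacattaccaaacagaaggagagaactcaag

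Over the 250 bases before each RefSeq start, both strands were searched for 6 motifs of factors that are known to act on nuclear genes for mitochondrial proteins. The CRE (TGACGTCA) was found in *Mdh2* and *Ogdh*, and in 1.55% of all 32851 promoters. The core bound by NRF1 (CGCATGCG, 1.55% of promoters) and the E-box (CACGTG, 6.02%) were found in *Ogdh* alone, in windows of its downstream start sites. The ETS motif that GABPA binds (CCGGAAG, 6.91%) and the YY1 motif (AAGATGGC, 1.56%) were found in *Idh3g* alone. The RefSeq starts of *Idh3g* and *Mdh2* lie 216 and 211 bases downstream of the canonical GENCODE starts. Their motifs, 104 to 130 bases before the RefSeq starts, thus lie downstream of the canonical starts. The motif of the estrogen-related receptors (AAGGTCA, 4.08%) was in no window of the 8 genes. No motif was shared by all members that rose together, and *Cs*, *Fh1*, *Idh3b*, *Sdha* and *Suclg1* held none of the 6. A letter match is not a bound site, and its absence says only that these letters are not in the window.

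Levels were first set side by side per length, as TPM, the abundance Salmon estimates per transcript length and library, summed over each gene's transcripts. *Mdh2* was the highest of the 9 in all 12 libraries, with a mean of 109 ± 19.7 TPM (SD, n = 3) in Neg ESCs, 116 ± 8.28 in the 3×KD ESC libraries, 135 ± 0.401 in Neg EpiLCs and 118 ± 23.5 for 3×KD EpiLCs. Its lowest library did not overlap the next gene in any group. The other 8 genes had group means between 37.2 and 76.6 TPM, and each neighbouring pair in that order overlapped in its library ranges in every group, so neighbours in the order do not differ beyond their spread. Genes farther apart in it could: *Idh3g*, at rank 2 or 3 in every library without transcripts under 300 bases, did not overlap *Idh3a*, at ranks 7 to 9, in any group. *Idh3a*, which encodes the catalytic subunit of isocitrate dehydrogenase 3, was the lowest in 3 groups, with 37.2 ± 7.07 TPM in Neg ESCs, 40.1 ± 4.62 in 3×KD ESCs and 43.2 ± 3.61 in Neg EpiLCs. In 3×KD EpiLCs *Suclg1* was the lowest with 40.7 ± 9.19 TPM, beside 41.9 ± 6.11 for *Idh3a*. A transcript of *Sdha* of 239 bases, *Sdha-204*, took 20.9% to 40.0% of the gene's TPM in 3 Neg libraries and 0 in the other 9, on 0.165% or less of the estimated counts on average. Without transcripts under 300 bases, an alternative chosen after seeing the data, *Sdha* averaged 51.5 TPM in Neg ESCs in place of 63.9.

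Differences were tested on estimated counts per gene with edgeR's quasi-likelihood test, in 1 fit of all 12 libraries over 25446 genes, and a gene passed at a Benjamini-Hochberg adjusted p under 0.01. All 9 genes were tested, and all 9 averaged at least 50 CPM, as did 4373 genes. Shares that passed are given for all genes and, at levels like those of the members, for these 4373. Each group enters more than one of the comparisons, so the comparisons share libraries.

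**Figure D1:**
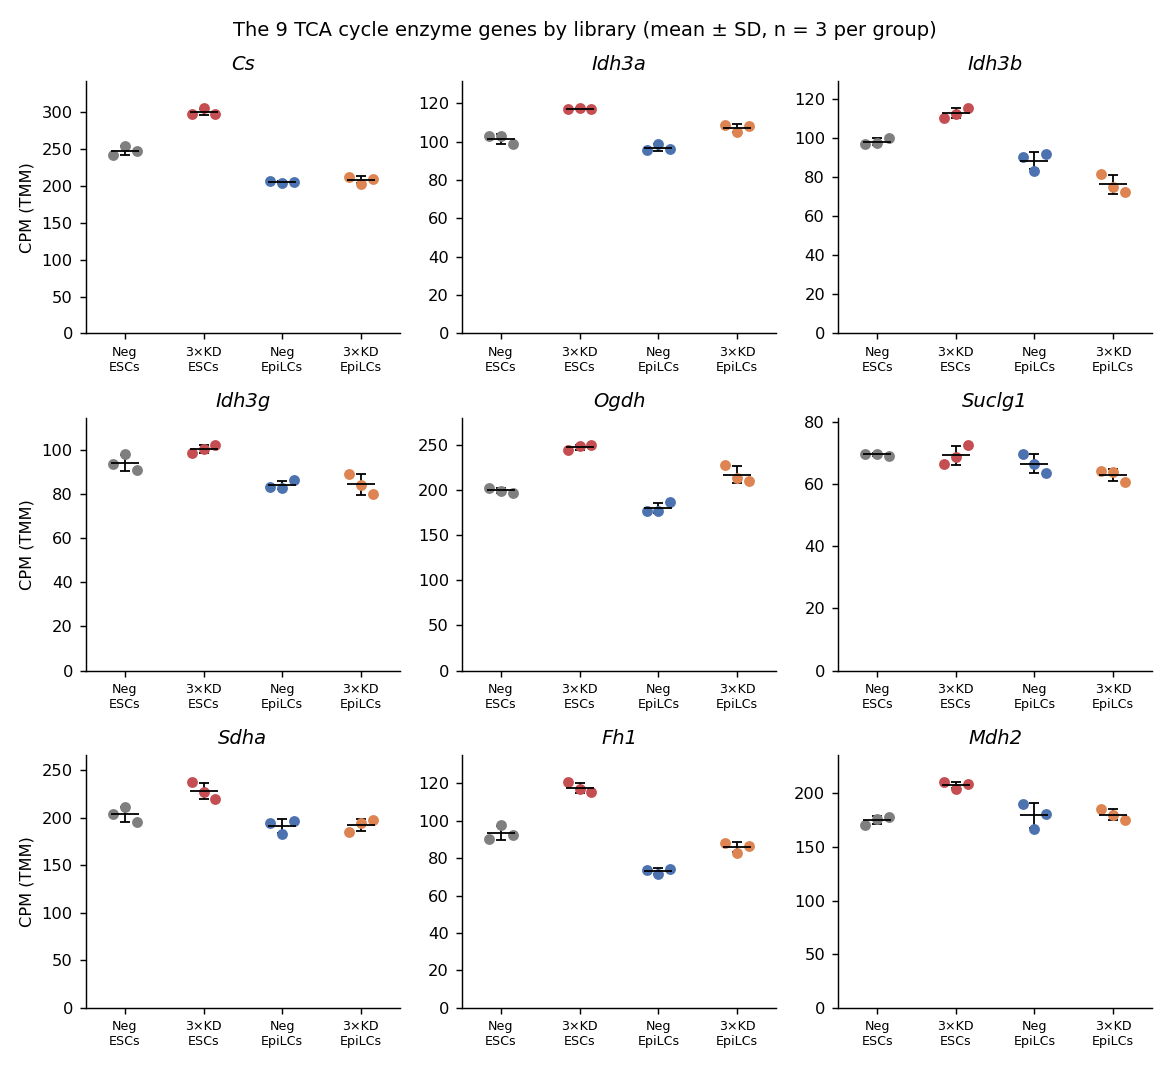
The 9 genes in each library, in CPM after TMM scaling (y axis, from 0), by group (x axis). Points are libraries, and bars are the mean and SD of 3. In 8 panels all 3×KD ESC points lie above the Neg ESC points, and *Suclg1* is the exception. How many of all genes do so was not counted.

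Neg and 3×KD are separate lines, so lowering the 3 targets cannot be told apart from other differences between the lines. In ESCs, before differentiation, 7 of the 9 genes were higher in 3×KD than in Neg. The 7 were *Fh1*, *Ogdh*, *Cs*, *Mdh2*, *Idh3a*, *Idh3b* and *Sdha*, with rises of 12.2% to 25.8%, and *Idh3g* and *Suclg1* did not pass. Among all genes tested 15.6% were higher and 16.0% lower, and among the 4373 highly expressed genes 27.3% were higher and 36.5% lower. The median log2 fold change was 0.21 over the 9 genes, 0.026 over all genes and −0.041 over the highly expressed genes. Every rise was small: 15.3% of all genes passed with an absolute log2 fold change above 0.58, and the largest among the 9 was 0.33. With offsets for the estimated transcript lengths, 3 of the 9 genes passed as higher.

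*Cs*, which starts each turn of the cycle, was at 242.2, 254.2 and 247.8 CPM in the Neg ESC libraries and at 297.6, 305.8 and 298.3 in the 3×KD ESC libraries. The groups did not overlap, and the log2 fold change was 0.28 (SE 0.031, adjusted p = 1.4e-06 from edgeR). *Fh1*, which hydrates fumarate to malate, was at 90.1, 97.7 and 92.5 CPM and at 120.5, 116.9 and 115.3. Its log2 fold change of 0.33 (SE 0.039, adjusted p = 3.3e-06 from edgeR) was the largest of the 9. *Ogdh*, the substrate-binding component of its complex, was at 202.0, 199.2 and 196.7 CPM and at 244.3, 248.3 and 249.4. It rose by 24.1% (log2 fold change 0.31, SE 0.036, adjusted p = 1.9e-06 from edgeR).

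*Mdh2*, which regenerates oxaloacetate, was at 170.5, 176.5 and 177.8 CPM in Neg ESCs and at 210.3, 204.3 and 208.9 in 3×KD ESCs. The log2 fold change was 0.25 (SE 0.042, adjusted p = 0.00014 from edgeR), again without overlap. *Sdha*, the flavoprotein subunit of succinate dehydrogenase (respiratory complex II), was at 203.8, 211.6 and 195.2 CPM and at 237.4, 227.2 and 220.3. Its rise of 0.17 (SE 0.041, adjusted p = 0.0037 from edgeR) was the smallest that passed. With transcript-length offsets the sign changed (−0.091, adjusted p = 0.83). It did not pass without Neg ESC library 1 or 3 or without 3×KD ESC library 2, where the adjusted p was 0.011, 0.028 and 0.011.

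Of the subunits of isocitrate dehydrogenase 3, *Idh3a* and *Idh3b* rose and *Idh3g* did not pass. *Idh3a* was at 102.9, 103.2 and 98.6 CPM in Neg ESCs and at 117.3, 117.6 and 116.9 in 3×KD ESCs (log2 fold change 0.21, SE 0.034, adjusted p = 8.1e-05 from edgeR). *Idh3b*, a regulatory subunit, was at 96.7, 97.2 and 100 CPM and at 110.3, 112.4 and 115.2 (0.20, SE 0.047, adjusted p = 0.0023). That call was lost without Neg ESC library 2 or 3×KD ESC library 3, at an adjusted p of 0.010 and 0.014. *Idh3g*, the other regulatory subunit, was at 93.5, 98.0 and 90.9 CPM and at 98.5, 100.7 and 102.2. These groups did not overlap either, although the difference of 0.095 did not pass (SE 0.043, adjusted p = 0.10). *Suclg1*, the alpha subunit of succinyl-CoA ligase, was at 69.7, 69.8 and 69.1 CPM and at 66.4, 68.8 and 72.5, with a log2 fold change of −0.0059 (SE 0.045, adjusted p = 0.95).

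In EpiLCs the 9 genes divided. *Ogdh*, *Fh1* and *Idh3a* were higher in 3×KD than in Neg, *Idh3b* was lower, and *Cs*, *Idh3g*, *Suclg1*, *Sdha* and *Mdh2* did not pass. Among all genes tested 14.3% were higher and 15.6% lower, and among highly expressed genes 22.0% were higher and 44.0% lower. The median over the 9 genes was 0.01, against 0.032 over all genes and −0.105 over the highly expressed genes. Both limits were passed by 13.2% of all genes, whereas the largest absolute value among the 9 was 0.27. With transcript-length offsets 1 gene passed as higher and *Idh3b* did not pass as lower.

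**Figure D2:**
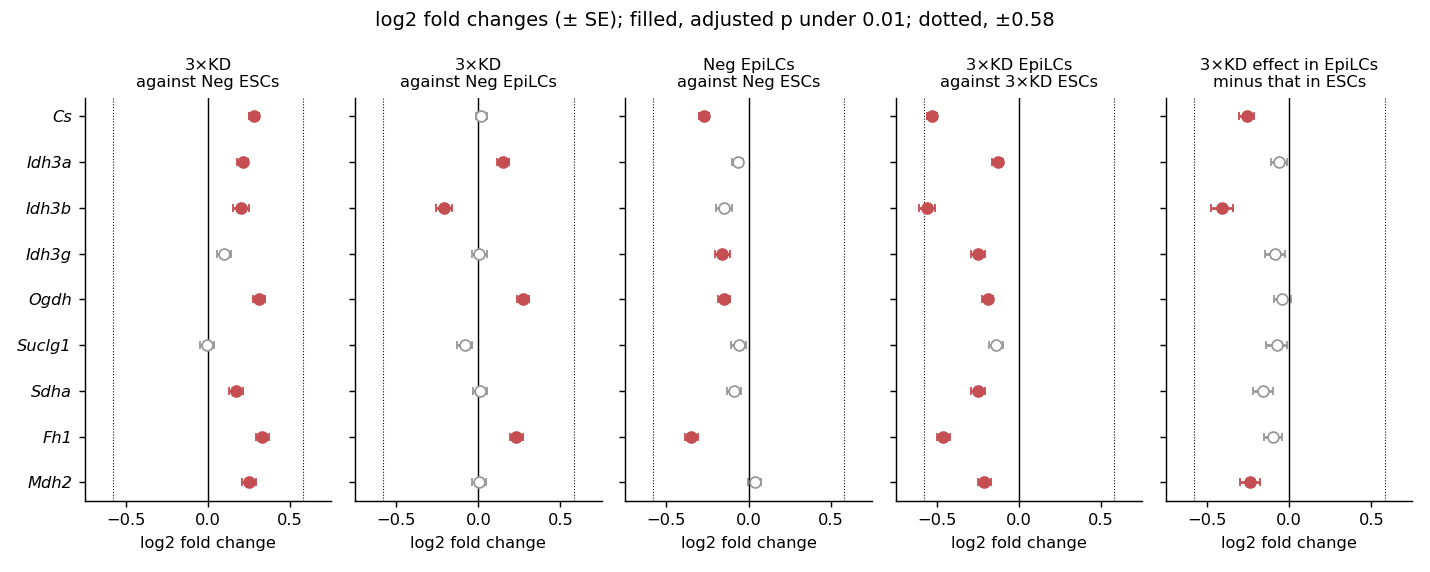
log2 fold changes of the 9 genes (x axis, bars are ± SE) in each of the 4 comparisons and for the difference of the 3×KD effect between the states. Filled points passed an adjusted p of 0.01, and dotted lines mark 0.58 in either direction, which no gene reaches: 7 genes pass to the right of 0 in ESCs, 3 in EpiLCs.

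*Ogdh* was at 176.6, 176.1 and 186.3 CPM in Neg EpiLCs and at 227.3, 213.2 and 209.9 in 3×KD EpiLCs. The groups lay apart, with a log2 fold change of 0.27 (SE 0.036, adjusted p = 1.1e-05 from edgeR) close to that in ESCs. *Fh1* was at 73.6, 71.3 and 74.3 CPM and at 87.9, 82.7 and 86.7 (0.23, SE 0.040, adjusted p = 0.00020). *Idh3a* was at 95.7, 99.1 and 96.2 CPM and at 108.8, 105.1 and 108.1 (0.15, SE 0.034, adjusted p = 0.0021). It did not pass when only the EpiLC libraries were fitted, at an adjusted p of 0.014.

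*Idh3b* was at 90.0, 83.2 and 91.5 CPM in Neg EpiLCs and at 81.7, 74.8 and 72.1 in 3×KD EpiLCs. Every 3×KD library was below every Neg library, and the log2 fold change was −0.21 (SE 0.048, adjusted p = 0.0019 from edgeR). The call was lost without Neg EpiLC library 3 (adjusted p = 0.013) or 3×KD EpiLC library 2 (0.010) and with library size alone as scaling (0.029). Over its alternatives the direction stayed negative, and the adjusted p was lost in those 3 settings and with transcript-length offsets.

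For the 5 genes that did not pass, the library values overlapped. *Cs* was at 207.4, 204.5 and 205.1 CPM in Neg EpiLCs and at 212.7, 203.1 and 209.4 in 3×KD EpiLCs, a log2 fold change of 0.019 (SE 0.031). *Mdh2* was at 190.4, 166.9 and 180.9 CPM and at 185.4, 179.7 and 175.3 (0.0054, SE 0.042). *Sdha* was at 194.4, 182.6 and 196.4 CPM and at 185.4, 195.0 and 197.3 (0.010, SE 0.042). For these genes the 3×KD and Neg libraries of EpiLCs could not be told apart at this spread. *Idh3g* was at 83.1, 82.8 and 86.3 CPM and at 89.3, 84.1 and 80.0, and *Suclg1* at 69.7, 66.4 and 63.7 and at 64.1, 64.0 and 60.8.

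Whether the 3×KD effect differed between the states was tested as an interaction. *Cs*, *Idh3b* and *Mdh2* passed, each with a lower effect in EpiLCs. The differences were −0.26 for *Cs* (SE 0.043, adjusted p = 0.00049 from edgeR), −0.41 for *Idh3b* (SE 0.067, adjusted p = 0.00036) and −0.24 for *Mdh2* (SE 0.060, adjusted p = 0.0096). Among all genes tested 5.27% passed as lower and 4.76% as higher, among highly expressed genes 18.0% and 9.99%, and 4.56% of all genes passed both limits. All 9 estimates were below 0, from −0.041 for *Ogdh* to −0.41 for *Idh3b*, and the median was −0.10 against −0.064 over highly expressed genes. The other 6 did not pass, with an adjusted p of 0.089 for *Sdha*, 0.28 for *Fh1* and 0.41 to 0.68 for *Idh3g*, *Idh3a*, *Suclg1* and *Ogdh*. *Mdh2* stood at the limit: its adjusted p was 0.010 to 0.026 without Neg ESC library 1, 2 or 3, without 3×KD ESC library 1, 2 or 3, without Neg EpiLC library 3 or without 3×KD EpiLC library 2. It was also lost with the replicate block (0.012), RLE factors (0.010), library size alone (0.064) and length offsets (0.13). *Idh3b* did not pass with length offsets (−0.51, adjusted p = 0.055). *Cs* did not pass with library size alone (−0.18, adjusted p = 0.018).

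From ESCs to EpiLCs the members fell or did not pass. In Neg cells *Fh1* fell by 21.8%, *Cs* fell by 17.1%, *Idh3g* fell by 10.6% and *Ogdh* fell by 9.81%. Among all genes tested 17.5% were higher and 18.2% lower, among highly expressed genes 37.9% and 29.9%, and 20.8% of all genes passed both limits. The median over the 9 genes was −0.15, against 0.011 over all genes and 0.045 over highly expressed genes. *Fh1* changed by −0.35 (SE 0.040, adjusted p = 1.4e-06 from edgeR) and *Cs* by −0.27 (SE 0.031, adjusted p = 1.4e-06), without overlap of libraries. *Idh3g* (−0.16, SE 0.044, adjusted p = 0.0061) and *Ogdh* (−0.15, SE 0.036, adjusted p = 0.0025) lost their calls with upper-quartile scaling, at 0.15 and 0.13, and together without Neg ESC library 1, without 3×KD ESC library 1 or without Neg EpiLC library 1 or 2. *Idh3g* also did not pass with RLE factors (0.013), DESeq2 (0.027), length offsets (0.082) or the replicate block (0.011), or without Neg ESC library 2 (0.036) or 3×KD EpiLC library 3 (0.013). *Idh3b*, with −0.15 (SE 0.047, adjusted p = 0.015), did not pass although its groups did not overlap. *Mdh2* was at 0.036 (SE 0.042), *Idh3a* at −0.066, *Suclg1* at −0.061 and *Sdha* at −0.090.

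In 3×KD cells 8 of the 9 genes fell from ESCs to EpiLCs. All 9 had every EpiLC library below every ESC library, but how many of all genes did so was not counted. Among all genes tested 17.9% were lower and 15.9% higher, among highly expressed genes 35.0% and 29.2%, and 18.7% of all genes passed both limits. The median over the 9 was −0.25, against 0.011 over all genes and −0.026 over highly expressed genes. *Idh3b* fell by 32.3% (log2 fold change −0.56, SE 0.047, adjusted p = 4.2e-08 from edgeR) and *Cs* fell by 30.7% (−0.53, SE 0.031, adjusted p = 3.8e-10). *Fh1* fell by 27.1%, *Idh3g* fell by 15.9% and *Sdha* fell by 15.7%, while *Mdh2* fell by 13.3%, *Ogdh* fell by 12.3% and *Idh3a* fell by 8.45%. *Suclg1* was at −0.14 (SE 0.045, adjusted p = 0.022). The *Idh3a* call was lost in 11 alternatives, among them every other scaling (adjusted p of 0.026 to 0.22), DESeq2 (0.076), and without 3×KD ESC library 1, 2 or 3 or 3×KD EpiLC library 2 or 3 (0.012 to 0.028). *Ogdh* did not pass with upper-quartile factors (0.010), and with transcript-length offsets 4 genes passed as lower.

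The summed level of the 9 genes depended on the scale. In CPM it was 1271, 1307 and 1269 CPM in Neg ESCs, 1503, 1502 and 1499 in the 3×KD ESC libraries, 1181, 1133 and 1181 in Neg EpiLCs and 1243, 1202 and 1200 for 3×KD EpiLCs. The 3×KD ESC libraries were the highest, the Neg EpiLC libraries the lowest, and no libraries of different groups overlapped. Summed TPM overlapped between all groups, with 474, 668 and 503 in Neg ESCs, 502, 592 and 595 with the knockdown, 547, 597 and 668 in Neg EpiLCs and 630, 508 and 453 with the knockdown. The order seen in CPM was thus not seen in TPM. Besides length, TPM differs from CPM in how libraries are scaled, and the part of each was not tested. *Cs*, with 98.9% or more of its TPM on *Cs-201*, spanned 50.9 to 71.5 TPM in Neg ESCs but 242.2 to 254.2 CPM.

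Isocitrate dehydrogenase 3 is built from catalytic and regulatory subunits, so their transcript ratios were set side by side per length. The sums include transcripts not annotated as plainly coding. *Idh3a-204*, annotated as a target of nonsense-mediated decay, held 75.1% to 84.5% of the *Idh3a* TPM. *Idh3g-205*, without a defined coding sequence, held 28.1% to 38.8% of the *Idh3g* TPM. The *Idh3b* to *Idh3a* ratio of summed TPM was 1.54, 1.24 and 1.47 in Neg ESCs and 1.40, 1.37 and 1.48 in their 3×KD counterparts, 1.44, 1.34 and 1.46 in Neg EpiLCs and 1.23, 1.07 and 0.915 for 3×KD EpiLCs. The 3×KD EpiLC libraries were below the other 9, by little for library 1. In CPM, which leaves out transcript lengths, the ratio was 0.667 to 0.751 in 3×KD EpiLCs and 0.840 to 1.01 in the other 9 libraries. The *Idh3g* to *Idh3a* ratio of TPM averaged 1.90 ± 0.116 (SD, n = 3) in Neg ESCs, 1.68 ± 0.0494 in the 3×KD ESC libraries, 1.69 ± 0.157 in Neg EpiLCs and 1.58 ± 0.0774 for 3×KD EpiLCs. Its 3×KD libraries lay below the Neg libraries in ESCs and did so in EpiLCs for 2 of 3, since 3×KD EpiLC library 2 was at 1.67 beside 1.57 for Neg EpiLC library 2. In CPM the 3×KD EpiLC libraries (0.821, 0.801 and 0.740) were all below the Neg EpiLC libraries (0.869, 0.835 and 0.898), so that overlap depended on the length scaling.

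**Figure D3:**
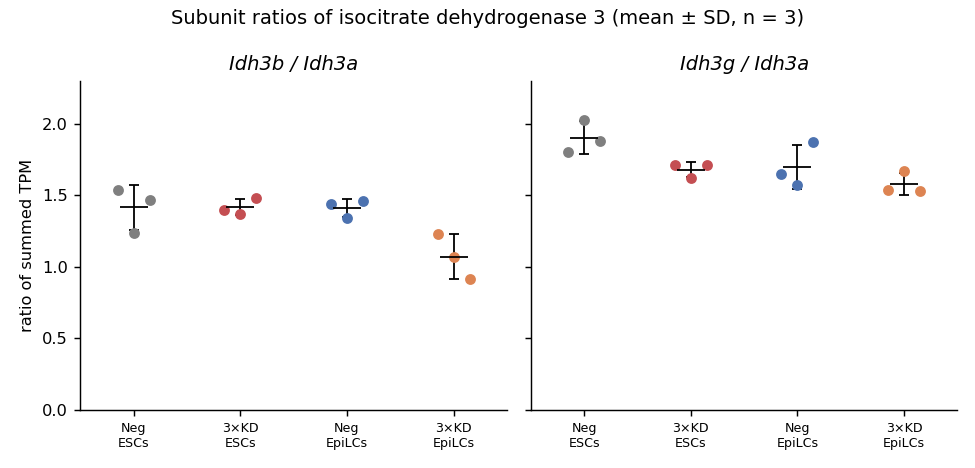
Ratios of summed TPM of the regulatory subunit genes *Idh3b* (left) and *Idh3g* (right) to *Idh3a* (y axis, from 0) by group. Points are libraries, and bars are the mean and SD of 3. The *Idh3b* ratio of the 3×KD EpiLC libraries, 0.915 to 1.23, is the lowest.

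Transcripts were compared as shares of their gene's TPM, for those with at least 10% in any group. Most counts of *Idh3a* were assigned to *Idh3a-204*, annotated as a target of nonsense-mediated decay (1812 bases, chr9:54493765-54511229), and to the coding *Idh3a-205*. *Idh3a-204* held 77.5%, 78.6% and 82.4% of the TPM in Neg ESCs, 76.8%, 77.1% and 75.1% in the 3×KD ESC libraries, 84.5%, 83.0% and 83.5% in Neg EpiLCs and 78.2%, 81.7% and 82.1% for 3×KD EpiLCs. The share of 3×KD lay below that of Neg in each state, and EpiLCs lay above ESCs of each line, without overlap. As a share of estimated counts, which is not divided by length, the lines overlapped in ESCs. Of the 19 transcripts of genes with several of them, the groups lay apart for 1 between the lines in ESCs, 2 between the lines in EpiLCs, 3 between the states in Neg and 3 between the states in 3×KD. Among 15340 such transcripts of all genes the shares were 19.7%, 19.5%, 16.5% and 16.6%, above or close to those of the members, so the count says nothing particular about them. *Ogdh-207* was lower in Neg EpiLCs than in Neg ESCs, and *Mdh2-201* was lower and *Mdh2-203* higher in 3×KD EpiLCs than in 3×KD ESCs. No errors of the transcript estimates were used here.

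Transcripts annotated as retained introns took a larger part of *Idh3g* in 3×KD. Such shares depend on the RNA selected, for which the labels name polyA RNA and the protocol ribosomal RNA depletion. They held 5.34%, 11% and 4.70% of its estimated counts in Neg ESCs and 11.3%, 16.2% and 14.2% in 3×KD ESCs, and 5.33%, 7.98% and 9.27% in Neg EpiLCs and 12.8%, 18.2% and 15.9% for 3×KD EpiLCs. The groups did not overlap in either state. Most of this came from *Idh3g-209* (2080 bases, chrX:72822569-72830503), a transcript singled out after its values were seen. It had 37.2, 71.7 and 65.3 estimated counts in Neg ESCs, 141.8, 176.3 and 182.4 in the 3×KD ESC libraries, 23.0, 54.2 and 55.5 in Neg EpiLCs and 145.4, 146.4 and 171.1 for 3×KD EpiLCs. Without retained-intron transcripts *Idh3g* averaged 87.5 ± 0.965 CPM (SD, n = 3) in Neg ESCs and 86.5 ± 1.84 in 3×KD ESCs, and 77.8 ± 1.35 and 71.3 ± 5.72 in EpiLCs, with overlap in both states. The total of *Idh3g* had not passed as higher in 3×KD ESCs (log2 fold change 0.095). As these transcripts held a larger share in 3×KD, leaving them out had to lower the 3×KD values more. The overlap therefore shows nothing further.

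For *Idh3a* retained-intron transcripts held 1.81%, 2.67% and 2.43% in Neg ESCs and 5.07%, 5.36% and 7.53% in 3×KD ESCs, and the EpiLC groups overlapped. Without these transcripts *Idh3a* still averaged 99.2 ± 2.65 and 110 ± 1.86 CPM (SD, n = 3) in Neg and 3×KD ESCs, without overlap. Over all genes such transcripts held 3.41% to 3.71% of counts in Neg libraries and 4.10% to 4.20% in 3×KD libraries. All 3×KD libraries were above all Neg libraries of their state for 2 of the 9 genes in ESCs and 1 in EpiLCs. Among 4818 genes with enough counts this held for 30.1% and 30.6%, a larger share than that of the 9 genes.

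**Figure D4:**
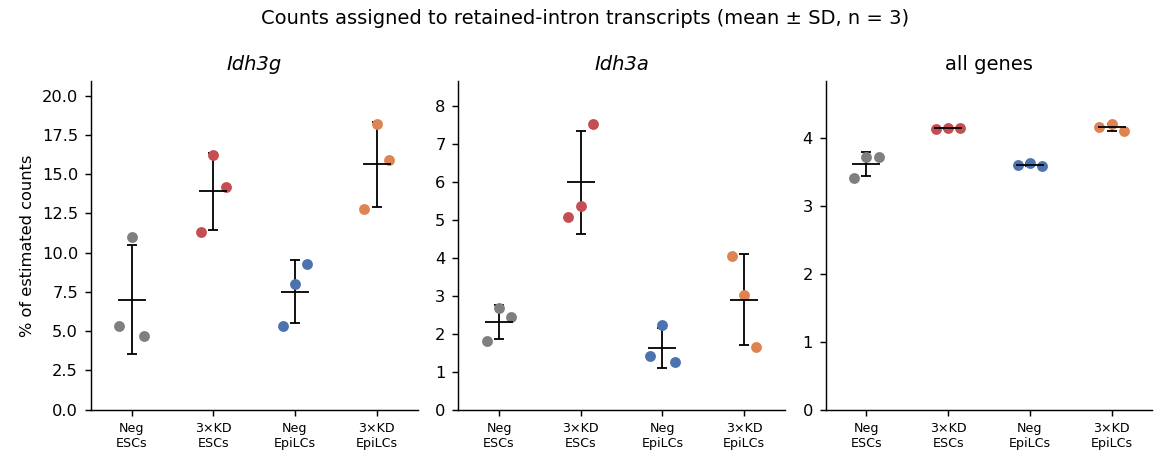
Percent of estimated counts assigned to retained-intron transcripts (y axes, from 0, each to its own scale) of *Idh3g*, *Idh3a* and all genes, by group. Points are libraries, and bars are the mean and SD of 3. The 3×KD points of *Idh3g* lie at 11.3% to 18.2%, those of Neg at 4.70% to 11%.

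The 9 genes lie on 9 chromosomes. In GRCm39 they are at chr1:175425290-175453205 (*Fh1*), chr2:130121227-130126467 (*Idh3b*), chr5:135807292-135820882 (*Mdh2*), chr6:73225365-73253894 (*Suclg1*), chr9:54493575-54514730 (*Idh3a*), chr10:128172837-128198363 (*Cs*), chr11:6241551-6309233 (*Ogdh*), chr13:74469359-74498436 (*Sdha*) and chrX:72820644-72830719 (*Idh3g*). Their canonical transcripts have 9 exons (*Mdh2*, *Suclg1*) to 23 exons (*Ogdh*) and coding sequences of 1014 bases (*Mdh2*) to 3069 bases (*Ogdh*). The median log2 fold change of the genes on each member's chromosome, at a mean of at least 10 CPM, lay between −0.092 (chromosome 5) and 0.002 (chromosome 10) for 3×KD against Neg ESCs. As no such median was above 0.002, each of the 7 genes that rose necessarily lay above the median of its chromosome. Chromosome 16, which holds none of the 9 genes, stood apart with medians of 0.285 in ESCs and 0.255 in EpiLCs over 315 genes, so the lines differed beyond the 3 targets.

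Several members share a start region or overlap with another gene. *Ssr4*, on the opposite strand 415 bases from the *Idh3g* start, changed by −0.05 in 3×KD ESCs (adjusted p = 0.63 from edgeR) and fell by 0.34 on the log2 scale in 3×KD EpiLCs (adjusted p = 0.00073). *Ccdc127*, 79 bases from the *Sdha* start, was at −0.11 (adjusted p = 0.087) and fell by 0.28 (adjusted p = 0.00020). Neither divergent partner rose in 3×KD. *Nop56*, a ribosome biogenesis gene that overlaps the end of *Idh3b* on the other strand, fell by 0.54 in 3×KD ESCs (adjusted p = 3.0e-09), where *Idh3b* rose, and by 0.34 in 3×KD EpiLCs (adjusted p = 5.2e-07), where *Idh3b* fell. *Coq10a*, which overlaps *Cs* on the other strand, rose by 0.74 in 3×KD ESCs (adjusted p = 2.3e-05) and by 0.50 in EpiLCs (adjusted p = 0.0020), at a mean of 9.26 CPM. *Styxl1*, 52 bases from the *Mdh2* start, averaged 0.150 CPM, *Acsbg1*, which overlaps *Idh3a*, 1.61, and the citrate synthase-like copy *Csl* 0.0958.

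The gene whose course over the 12 libraries was most like that of each member was sought by the root-mean-square difference of centred log2 CPM. It was *Vangl2* for *Cs* (0.032), *Eef1a1* for *Idh3a* (0.034), *Cd164* for *Idh3b* (0.059), *Rad54l2* for *Idh3g* (0.028), *Snd1* for *Ogdh* (0.028), *Mrpl32* for *Suclg1* (0.041), *Xylt2* for *Sdha* (0.041), *Aacs* for *Fh1* (0.033) and *Lrrc42* for *Mdh2* (0.031). The median distance of all genes was 0.26 to 0.35. *Idh3b* thus had the most distant nearest gene.

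The other genes of the cycle, 11 further subunits and isozymes, included 6 that rose in 3×KD ESCs and 5 that did not pass, with a median of 0.20, where 15.6% of all genes and 27.3% of highly expressed genes were higher. *Idh2*, the NADP-dependent mitochondrial isocitrate dehydrogenase, showed the largest rise, from 57.5, 57.5 and 52.3 CPM in Neg ESCs to 123.6, 118.1 and 114.6 in 3×KD ESCs, and from 14.2, 15.5 and 13 CPM in Neg EpiLCs to 48.9, 47.2 and 42.5 in 3×KD EpiLCs. *Suclg2*, the GTP-specific partner of *Suclg1*, rose by 0.48 (SE 0.042, adjusted p = 8.3e-08 from edgeR) in ESCs, while *Sucla2*, the ATP-specific partner, was at −0.042 in ESCs and fell by 0.21 in EpiLCs (SE 0.055, adjusted p = 0.0050). *Sdhc*, a membrane anchor of succinate dehydrogenase, rose by 0.36 (SE 0.041, adjusted p = 1.7e-06). In EpiLCs 4 of the 11 rose, among them *Ogdhl* by 0.41 and *Suclg2* by 0.18, and 3 fell. In that comparison 14.3% of all genes were higher and 15.6% lower, and of highly expressed genes 22.0% and 44.0%. From ESCs to EpiLCs 2 rose and 6 fell in Neg, with *Idh2* at −1.97, *Ogdhl* at −0.54 and *Mrps36* at −0.50. Of all genes 17.5% rose and 18.2% fell there, and of highly expressed genes 37.9% and 29.9%. In 3×KD none rose and 9 fell, the largest falls being *Idh2* at −1.36, *Mrps36* at −0.61 and *Sdhd* at −0.59. Of all genes 15.9% rose and 17.9% fell there, and of highly expressed genes 29.2% and 35.0%.

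**Figure D5:**
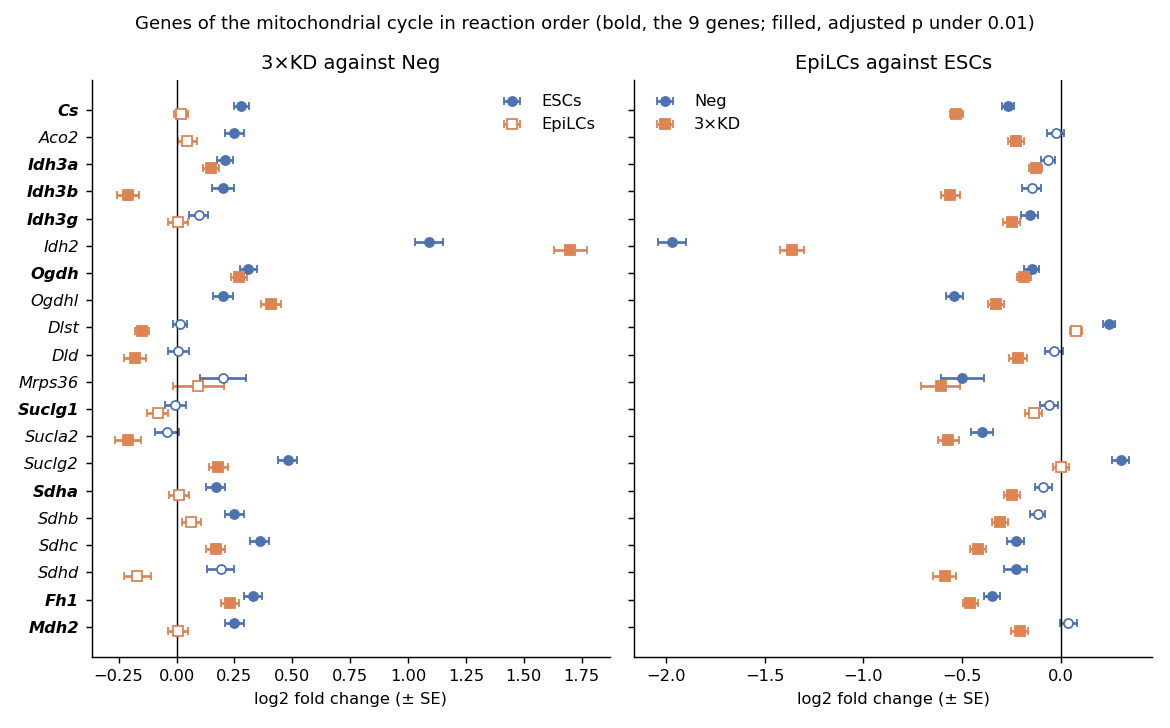
log2 fold changes (x axis, bars are ± SE) of 20 genes of the mitochondrial cycle in reaction order, for 3×KD against Neg (left, by state) and EpiLCs against ESCs (right, by line). Filled points passed an adjusted p of 0.01 and bold names are the 9 genes. *Idh2* stands apart at 1.09 and 1.70 on the left, while the 9 genes lie between −0.21 and 0.33.

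The cytosolic counterparts *Idh1*, *Aco1* and *Mdh1* fell in EpiLCs against ESCs in both lines, by 0.88, 0.57 and 0.56 in Neg and by 0.96, 0.63 and 0.61 in 3×KD (log2). Of all genes 18.2% fell in Neg and 17.9% in 3×KD. In 3×KD against Neg ESCs *Idh1* rose by 0.20 and the other 2 did not pass, and in EpiLCs none of the 3 passed. Of 4 pyruvate dehydrogenase core genes, which feed acetyl-CoA to *Cs*, *Pdhx* fell in 3×KD in ESCs (−0.69, SE 0.058, adjusted p = 6.0e-08 from edgeR) and in EpiLCs (−0.57, SE 0.059, adjusted p = 7.6e-07), and the other 3 did not pass in either. All 4 fell in Neg EpiLCs against Neg ESCs, *Pdha1* by 0.90, *Dlat* by 0.25 and *Pdhb* by 0.24, where 18.2% of all genes and 29.9% of highly expressed genes were lower. In 3×KD ESCs *Pdhb* was at 0.074 (adjusted p = 0.13), with every library above those of Neg. *Pdha1* was at −0.089 (adjusted p = 0.043 from edgeR), with every library below those of Neg.

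Among 8 measured assembly and lipoylation factors, *Sdhaf2*, which attaches the flavin to *Sdha*, fell by 0.48 (SE 0.082, adjusted p = 0.00015 from edgeR) in 3×KD ESCs and by 0.60 (SE 0.082, adjusted p = 1.5e-05) in 3×KD EpiLCs. *Sdhaf1* rose by 0.46 in ESCs, *Nfu1*, an iron-sulfur scaffold for lipoate synthesis, by 0.24 in EpiLCs, and 6 did not pass in each state. From ESCs to EpiLCs *Sdhaf4* and *Nfu1* fell in Neg (−0.76 and −0.67) and *Sdhaf3* rose (0.37, adjusted p = 0.0089), with 3 lower and 1 higher in all. Of all genes 18.2% were lower and 17.5% higher in that comparison.

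Of 14 regulators of nuclear genes for mitochondrial proteins, 2 rose and 7 fell in 3×KD ESCs, and 2 rose and 6 fell in 3×KD EpiLCs. Over all genes tested 15.6% were higher and 16.0% lower in ESCs and 14.3% and 15.6% in EpiLCs. Over highly expressed genes 27.3% were higher and 36.5% lower in ESCs and 22.0% and 44.0% in EpiLCs. The 14 regulators averaged from 0.177 CPM (*Ppargc1a*) to 559 CPM (*Esrrb*), so not all of them were highly expressed. *Ppargc1b*, a coactivator of mitochondrial biogenesis, rose by 0.89 (SE 0.090, adjusted p = 5.3e-07 from edgeR) and by 1.02 (SE 0.088, adjusted p = 9.0e-08). *Tfb2m*, a factor for transcription of mitochondrial DNA, fell by 1.28 in ESCs and 0.66 in EpiLCs, *Gabpb2* by 0.78 and 0.71 and *Pprc1*, a relative of the PGC-1 coactivators, by 0.44 and 0.41. *Esrrb*, a naive pluripotency factor of the estrogen-related receptor family, fell by 0.34 in 3×KD ESCs, rose by 0.89 in 3×KD EpiLCs and changed by −4.15 between Neg EpiLCs and Neg ESCs.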

How the data were processed

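Directional single-end libraries, ribosomal RNA-depleted by the protocol although the labels' molecule field gives polyA RNA, were trimmed (Trim Galore 0.6.7) and quantified by the authors with STAR 2.7.9a and Salmon 1.10.1 on GRCm39 with the Ensembl annotation. The deposited tables hold estimated counts and TPM for 149132 transcripts per library, both estimated by the authors' Salmon run. Effective lengths in these tables were used only for an alternative.

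The estimated counts of a gene's transcripts were added up and rounded, and 25446 genes with at least 10 counts over all libraries were tested (edgeR 4.0.16 quasi-likelihood, TMM, 4 groups, 12 libraries, R 4.3.3, Benjamini-Hochberg over all genes). The script was tested on simulated data. Groups came from sample titles, since the cell type label gives ESC for all Neg and EpiLC for all 3×KD samples. The labels do not say that replicates are separate cultures, so p-values measure the spread between these libraries. Libraries held 11221023 to 19652197 estimated counts. The members and lists were chosen with earlier results of these data known. Named were the 9 genes, the 3 targets, *Csl*, of each list the 3 genes with the largest passing changes per comparison, divergent (within 1000 bases) or overlapping genes, and the most alike gene (log2 of CPM + 0.5). Promoters came from RefSeq (GRCm38.p6), placed in GRCm39, and gene positions from GENCODE vM39, which held 99.0% of gene IDs. *Csskmt* was not matched by symbol. Alternatives covered scaling, filters, DESeq2 1.42.0, length offsets, the replicate block and each library left out. No retained-intron transcript was tested. For its background share, a gene needed 100 counts per library and 60 on such transcripts in all.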

Additional observations from a re-analysis of the deposited data

Results flagged for a closer look

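For 3 of the 9 genes the 3×KD effect differed between EpiLCs and ESCs by its own test (edgeR's quasi-likelihood interaction, Benjamini-Hochberg adjusted over all genes). *Cs* had a difference of −0.26 on the log2 scale (adjusted p = 0.00049), with a rise in ESCs and overlapping libraries in EpiLCs. *Idh3b* had −0.41 (adjusted p = 0.00036) and was the gene whose effect passed in opposite directions, at 0.20 in ESCs and −0.21 in EpiLCs. *Mdh2* had −0.24 (adjusted p = 0.0096), and this call was lost when any of 8 single libraries was left out, with the replicate block (adjusted p = 0.012), with RLE factors (0.010), with library size alone (0.064) and with transcript-length offsets (0.13).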

How the results depend on the processing

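Of 981 values of single genes under alternatives, 891 kept their direction and side of the threshold, 60 no longer passed, 6 newly passed and 24 changed sign. With transcript-length offsets, the number of the 9 genes higher in 3×KD was 3 in ESCs and 1 in EpiLCs, the number lower in 3×KD EpiLCs was 0, and the number lower was 4 for EpiLCs against ESCs in 3×KD and 1 for the difference. With library size alone, 0 were lower in 3×KD EpiLCs and 1 in the difference, and with upper-quartile factors 2 were lower in Neg EpiLCs. With a log2 limit of 0.58 added, every one of these counts was 0. The cause was not tested. Leaving out each library gave 6 to 7 higher in 3×KD ESCs, 3 in each case higher in 3×KD EpiLCs and 0 to 1 lower, 2 to 5 lower in Neg EpiLCs, 7 to 8 lower in 3×KD EpiLCs against ESCs and 2 to 3 lower in the difference.

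Values that changed sign had not passed, except *Sdha* in 3×KD ESCs (−0.091 with length offsets). With length offsets *Sdha* was −0.23 and *Mdh2* −0.035 in 3×KD EpiLCs, and *Idh3a* 0.0014 and *Sdha* 0.031 in Neg EpiLCs against ESCs. With upper-quartile factors *Suclg1* was 0.016 in 3×KD ESCs and 0.022 in Neg EpiLCs against ESCs, where *Idh3a* was 0.017. With no filter *Suclg1* was 0.00094 in 3×KD ESCs. With library size alone *Mdh2* was −0.0013 in Neg EpiLCs against ESCs, and the difference was 0.011 for *Idh3a* and 0.032 for *Ogdh*. With only the EpiLC groups, 3×KD values were −0.0091 for *Idh3g*, −0.0046 for *Sdha* and −0.01 for *Mdh2*. Leaving out each library gave −0.04 to 0.053 for *Suclg1* in 3×KD ESCs and, in 3×KD EpiLCs, −0.034 to 0.044 for *Idh3g*, −0.013 to 0.038 for *Sdha* and −0.036 to 0.054 for *Mdh2*.

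Replicate numbers did not pair libraries: deviations of same-numbered libraries correlated at −0.268 to 0.206, against −0.326 to 0.399 for other numbers. With the replicate block the counts were 7 higher in 3×KD ESCs, 3 higher and 1 lower in 3×KD EpiLCs, 3 lower in Neg EpiLCs, 8 lower in 3×KD EpiLCs against ESCs and 2 lower in the difference, where *Mdh2* no longer passed (adjusted p = 0.012). *Idh3g* was the call lost in Neg EpiLCs (0.011).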
